A study of Homo sapiens with 6 samples.

Results

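Complement, coagulation and plasminogen genes were followed in A549 cells, a human lung adenocarcinoma line, in which C19orf12 had been lowered by an shRNA. The set was named by symbol and held 34 genes of the 3 systems with fibrinogen left out, and each of the 34 was listed in at least 1 library, among 20824 genes listed in all. The 2 groups were C19orf12 knockdown cells, which carried an shRNA against that gene, and sh-scramble cells, which carried a scrambled shRNA and serve as the wild-type control, with 3 libraries in each group. All cells were of the same line, and the control also carried an shRNA construct. The 3 knockdown titles carry the same prefix, shC19orf12-1, and no source used here gives the shRNA sequence or the number of clones. Separate cultures are not stated for the replicates, and a p-value therefore reflects only how far these libraries differ, which may be technical. Polyadenylated RNA was sequenced, and levels are given as CPM, which are RSEM estimated counts scaled to the library size with TMM factors. In bulk RNA, fewer cells of a type and less RNA per cell cannot be told apart.

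Complement is a cascade of blood proteins in which proteases of the classical and alternative pathways split C3 and then C5 on a target surface, and cells shield themselves with membrane proteins that block or break down these enzymes. Coagulation is a second protease cascade, started by tissue factor and ending in thrombin, which makes fibrin and also signals to cells through protease-activated receptors. Plasminogen activators turn plasminogen into plasmin, which dissolves fibrin and degrades matrix, and serpins restrain all 3 systems. The liver makes most of the soluble proteins, while epithelial and tumour cells also make many of them and carry the membrane regulators and the urokinase receptor.

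In the knockdown libraries 3 of 6 tested complement components and 5 of 6 tested regulators were higher, against 5.89% of all genes. The regulators include CFI, which passed a filter on low counts only through its knockdown libraries and so had to differ. The C1R call among the components held in 1 of the 6 fits that each left out 1 library. The urokinase and thrombomodulin genes were also higher, while the genes of the chaperone clusterin and of the 2 protease-activated receptors of the set were lower. The clusterin call held in 3 of those 6 fits and the call of the receptor gene F2R in 4. C3, the central complement protein, averaged 93.2 ± 2.24 CPM in knockdown libraries and 9.81 ± 3.17 CPM in scramble libraries (SD, n = 3 each). CD55 and CD46, which protect the cell surface from complement, averaged 1032 ± 24.9 and 964 ± 14.4 CPM in knockdown libraries, against 287 ± 73.8 and 224 ± 93.2 CPM in scramble libraries. F2RL1, a receptor cut by trypsin-like proteases, averaged 16.5 ± 2.69 CPM in knockdown libraries and 46.2 ± 3.65 CPM in scramble libraries.

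A filter on low counts passed 28 of the 34 genes, and 6 were too low to test. By edgeR's quasi-likelihood test at an adjusted p under 0.05, 12 of the 28 were called higher and 5 lower, while 11 were not called. This is 42.9% and 17.9% of the tested genes of the set, where 5.89% and 5.64% of all 14812 genes tested were called higher and lower. CFI and PROC passed the low-count filter through 1 group only and had to differ, and of the other 26 genes 11 were called higher (42.3%) and 4 lower (15.4%). The median log2 fold change was 0.53 over the 28 genes and 0.02 over all genes tested. The knockdown libraries lay above all scramble libraries for 16 of the 28 genes and below them for 8, against 18.4% and 18.6% of all genes. Summed over the set, the level ran from 4660.2 to 4753 CPM in the knockdown libraries and from 2739 to 2837 CPM in the scramble libraries. Much of the difference was that of CD55 and CD46, given above, while CLU averaged 578 CPM in knockdown libraries and 991 CPM in scramble libraries. The genes of this set were chosen with earlier results of these data known, so the counts describe them.

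**Figure D1:**
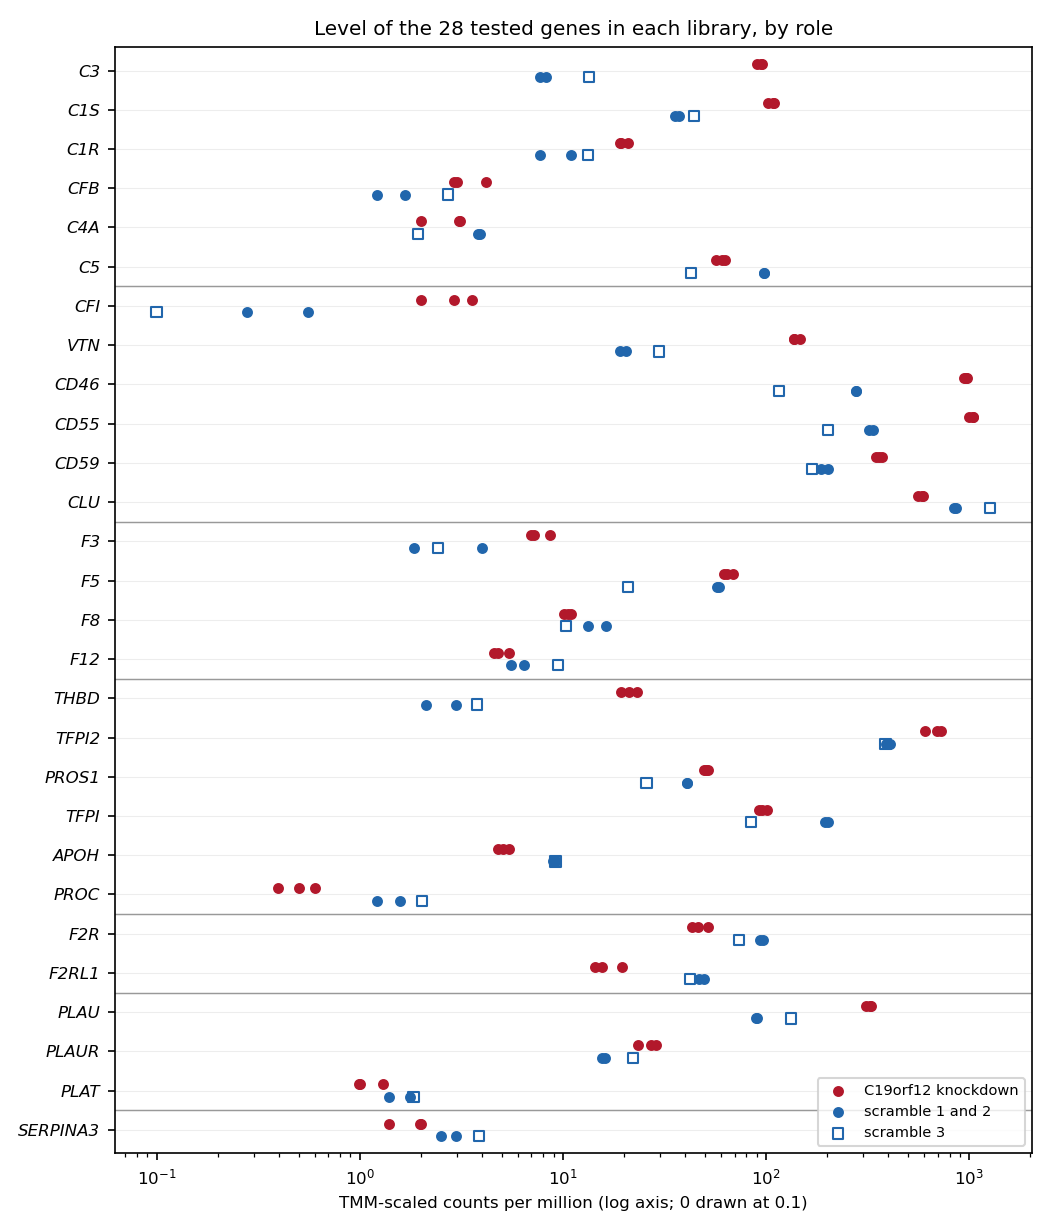
TMM-scaled CPM (log axis) of the 28 tested genes, grouped by role from complement components at the top to broad protease inhibitors at the bottom, with 1 point per library (red knockdown, filled blue scramble 1 and 2, open square scramble 3). C3, VTN, THBD, CD46 and CD55 separate the groups widely, while the open square of scramble 3 falls far from the other scramble libraries for CD46, TFPI, C5 and F5.

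Scramble replicate 3 stood apart from the rest of the series. Its log2 CPM correlated with scramble replicates 1 and 2 at 0.952 and 0.953 over the tested genes, while these 2 correlated with each other at 0.991, a comparison across genes, which are not independent replicates. Total estimated counts ran from 10229890 to 10647587 per library. When the 14231 tested genes with a GC value were ranked by GC content and cut into 10 bins, scramble replicate 3 lay at a median of -1.0 on the log2 scale from the mean of scramble replicates 1 and 2 in the lowest bin and at 0.49 in the highest. Among the tested genes of this set the same shift ran from -1.45 for F5 to 0.73 for CFB. The targeted gene, C19orf12, averaged 25.3 ± 1.08 CPM in knockdown libraries and 49.0 ± 12.4 CPM in scramble libraries (log2 fold change -0.95, adjusted p = 0.015 by edgeR). Dropping knockdown replicate 1, 2 or 3 ended that call, with adjusted p of 0.0908, 0.0755 and 0.0879. Without scramble replicate 3 the gene was called lower at -0.73 (adjusted p = 3.17e-08 by edgeR).

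Without scramble replicate 3, 16 of the 28 genes were called higher and 8 lower, where 25.7% and 23.8% of 15029 genes tested were called. All 17 calls made with 6 libraries were made again in the same direction, and 7 genes were added. With counts corrected for GC content and transcript length, 13 of 27 were called higher and 9 lower, where 15.3% and 19.2% of 14231 genes were called. C1R could not be fitted in that setting, as it had no GC value. In the 6 fits that each left out 1 library, 10 of the higher genes (C3, C1S, CFI, CD46, CD55, CD59, VTN, F3, THBD and PLAU) and 1 of the lower genes (F2RL1) were called every time. CFI is among them, although it passed the low-count filter only through its knockdown libraries and so had to differ. The share of all genes called every time is not given here. Leaving out 1 library gave 729 to 7439 called genes over all genes tested, against 1708 with all 6 libraries.

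**Figure D2:**
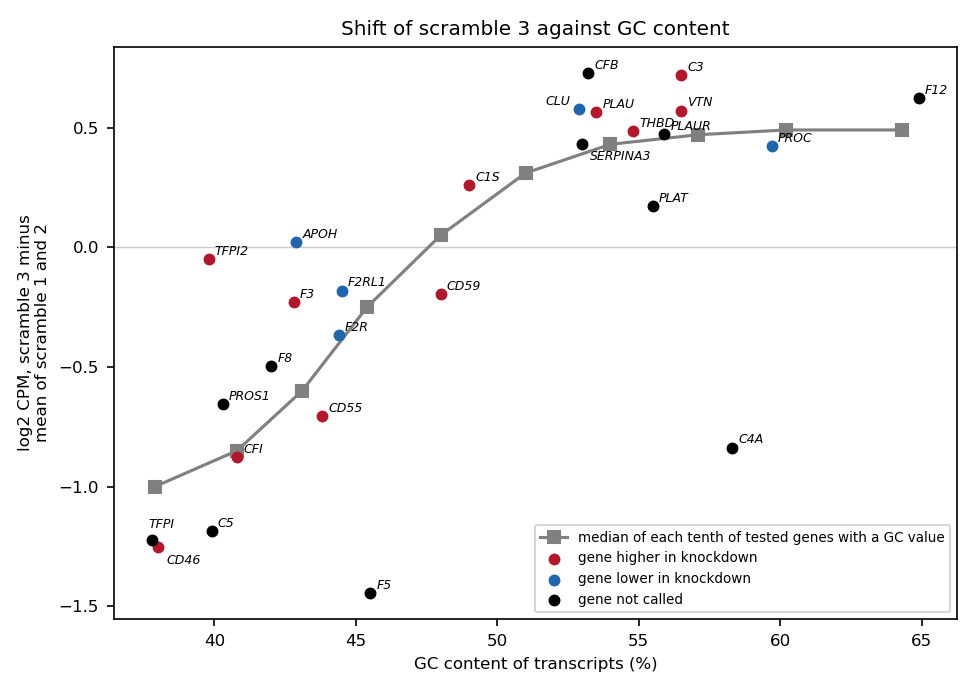
Shift of scramble 3 from the mean of scramble 1 and 2 (log2 CPM, vertical) against the GC content of each gene's transcripts in percent (horizontal), for tested genes of the set that have a GC value and for the medians of 10 GC bins of all such genes (grey). CD46, TFPI and C5, with GC content of 38, 37.8 and 39.9%, lie near the left end with shifts of -1.25, -1.23 and -1.19, and C3 and VTN, both at 56.5%, lie at 0.72 and 0.57.

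Promoter sequences were matched from RefSeq (build GRCh38.p14) for 24 of the 34 genes, and 5 are shown to set genes that rose beside 1 that fell. Each of the 5 holds at least 1 match to the motifs searched. The promoters of PLAU and CFI, which rose, and of PROC and APOH, which fell, hold 0 matches and are not shown. The 250 bases before each start are given 5′ to 3′ along the gene, for VTN at chr17:28370308-28370557 (minus strand), for CD55 at chr1:207321428-207321677 and CD46 at chr1:207751788-207752037 (plus strand), for F3 at chr1:94541760-94542009 (minus strand) and, for the gene that fell, F2RL1, at chr5:76818780-76819029 (plus strand). Capitals mark motif matches on either strand. The letters searched were TTGCNNAA for C/EBP factors and TTCNNNGAA for STAT factors. For AP-1 they were TGANTCA, with any base at N. The TATA box was searched as TATAAA. The letters GGGCGG stood for SP1.
VTN: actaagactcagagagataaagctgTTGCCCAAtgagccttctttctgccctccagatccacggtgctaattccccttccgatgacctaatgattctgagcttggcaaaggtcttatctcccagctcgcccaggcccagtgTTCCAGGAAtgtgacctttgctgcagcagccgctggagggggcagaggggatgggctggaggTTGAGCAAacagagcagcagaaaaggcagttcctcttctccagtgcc
CD55: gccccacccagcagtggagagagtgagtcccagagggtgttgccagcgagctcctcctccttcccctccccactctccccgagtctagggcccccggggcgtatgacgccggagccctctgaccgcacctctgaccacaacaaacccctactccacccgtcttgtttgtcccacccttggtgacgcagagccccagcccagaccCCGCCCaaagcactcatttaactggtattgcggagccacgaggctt
CD46: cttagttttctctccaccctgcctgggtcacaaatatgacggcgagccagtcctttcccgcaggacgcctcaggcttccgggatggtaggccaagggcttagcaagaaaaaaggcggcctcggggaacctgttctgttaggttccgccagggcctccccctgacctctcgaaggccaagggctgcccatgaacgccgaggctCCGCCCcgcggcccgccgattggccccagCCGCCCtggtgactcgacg
F3: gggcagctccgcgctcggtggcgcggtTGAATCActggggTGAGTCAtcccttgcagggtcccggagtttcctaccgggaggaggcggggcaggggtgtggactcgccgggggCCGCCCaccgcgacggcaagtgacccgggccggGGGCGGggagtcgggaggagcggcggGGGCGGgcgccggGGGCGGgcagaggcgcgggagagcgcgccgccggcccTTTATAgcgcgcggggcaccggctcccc
F2RL1: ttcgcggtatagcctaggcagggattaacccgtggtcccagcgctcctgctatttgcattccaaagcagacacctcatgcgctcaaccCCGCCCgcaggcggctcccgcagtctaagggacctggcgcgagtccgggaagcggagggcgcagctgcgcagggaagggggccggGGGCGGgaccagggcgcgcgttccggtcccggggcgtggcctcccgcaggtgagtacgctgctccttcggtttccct
VTN held the C/EBP letters at 2 places and the STAT letters at 1, CD55, CD46 and F2RL1 held only SP1 letters, and F3 held AP-1 letters at 2 places, SP1 letters at 4 and the TATA letters at 1. Over the 24 promoters the C/EBP, STAT, AP-1, TATA and SP1 letters stood in 3, 6, 3, 2 and 9, where 5.91%, 5.55%, 4.07%, 5.52% and 65.3% of the promoters of 11612 tested genes held them. An NF-kB motif stood in 1, TFPI2 (5.79% of all), while an HNF1 motif and TGATGNAA (C/EBP-ATF) stood in 0 of the 24 (0.181% and 1.36% of all). The 24 include F10, SERPINA1 and SERPINA5, which were too low to test, while the shares cover promoters of tested genes. Of these, F10 and SERPINA5 held the STAT letters, and all held the SP1 letters. In the 9 promoters of higher genes the C/EBP, STAT, AP-1, TATA and SP1 letters stood in 2, 2, 2, 1 and 4. In the 3 promoters of lower genes they stood in 0, 0, 0, 0 and 1. Matches between different motifs were allowed to overlap. A match is a run of letters and was not tested for binding.

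Of the complement components, C3, C1S and C1R rose, while CFB, C4A and C5 were not called. C3 stood at 90.7, 95.0 and 94.1 CPM in knockdown replicates 1, 2 and 3, against 7.71, 8.26 and 13.5 CPM in scramble replicates 1, 2 and 3. The groups did not overlap, the highest scramble library was replicate 3, and edgeR gave a log2 fold change of 3.25 (SE 0.23, adjusted p = 4.9e-05). C1S, the protease that the classical pathway uses to cut C4 and C2, stood at 109.8, 102 and 108 CPM in knockdown libraries and 37.4, 35.8 and 44.0 CPM in scramble libraries (1.45, SE 0.16, adjusted p = 0.000494). Its partner C1R, which activates C1s, stood at 20.8, 19.2 and 19.3 CPM in knockdown libraries and 7.71, 11 and 13.3 CPM in scramble libraries (0.89, SE 0.21, adjusted p = 0.0245). Each knockdown library lay above each scramble library for C1S and C1R, which are neighbours on chromosome 12. The C1R call did not survive dropping knockdown replicate 1, 2 or 3 (adjusted p = 0.112, 0.095 and 0.0963) or scramble replicate 1 or 2 (0.07 and 0.0662).

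CFB, the protease subunit of the alternative pathway, stood at 3.00, 2.90 and 4.17 CPM in knockdown libraries and 1.67, 1.21 and 2.71 CPM in scramble libraries (log2 fold change 0.85, adjusted p = 0.134). The groups did not overlap but came close, and CFB passed the test without scramble replicate 3 (1.21, adjusted p = 0.00232). C5, whose cleavage starts the membrane attack complex, stood at 57.0, 60.8 and 62.6 CPM in knockdown libraries and 97.8, 97.7 and 42.7 CPM in scramble libraries. Scramble replicate 3 alone lay below the knockdown libraries, and the fold change of -0.40 (adjusted p = 0.439) became -0.70 without it (adjusted p = 5.27e-10). C4A, which gives the surface-binding C4b fragment, averaged 2.73 ± 0.628 CPM in knockdown libraries and 3.21 ± 1.11 CPM in scramble libraries (-0.24, adjusted p = 0.704). C4B is a near-identical copy, listed with 5.08 estimated counts in knockdown replicate 2 and 0 in the other libraries, so the split between the copies is uncertain.

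Of the membrane and fluid-phase complement regulators, 5 of 6 tested genes rose and 1 fell, where 5.89% and 5.64% of all genes did. The 5 include CFI, which passed the low-count filter only through its knockdown libraries. CD55, which speeds the decay of C3 convertases, stood at 1003, 1047 and 1045 CPM in knockdown libraries and 336, 323 and 202 CPM in scramble libraries (log2 fold change 1.85, SE 0.20, adjusted p = 0.000526 by edgeR). CD46, a cofactor for the cleavage of C3b and C4b, stood at 947, 975 and 969 CPM in knockdown libraries and 277, 278 and 116 CPM in scramble libraries (2.11, SE 0.30, adjusted p = 0.00212). Scramble replicate 3 was the lowest library for both genes, and without it the fold changes were 1.65 for CD55 and 1.79 for CD46. CD59, which blocks assembly of the membrane attack complex, stood at 359.7, 349 and 373 CPM in knockdown libraries and 201, 186 and 169 CPM in scramble libraries (0.96, SE 0.14, adjusted p = 0.0025). For each of these 3 cell-surface regulators the groups did not overlap.

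VTN, vitronectin, is an adhesive plasma and matrix protein that also binds the terminal complement complex. It stood at 147, 137 and 137 CPM in knockdown libraries and 19.1, 20.4 and 29.6 CPM in scramble libraries, so the groups lay far apart (log2 fold change 2.61, SE 0.20, adjusted p = 7.2e-05 by edgeR). CFI, the protease that inactivates C3b, was near the detection limit, with 20, 29 and 36 estimated counts in knockdown libraries and 3, 6 and 0 in scramble libraries. It passed the low-count filter only through its knockdown libraries, so it had to differ, and its log2 fold change of 3.27 (adjusted p = 0.00603) was 4.19 without scramble replicate 2 and 2.72 without scramble replicate 3. CLU, clusterin, a secreted chaperone that restrains the membrane attack complex, was the regulator that fell. CLU stood at 583, 592 and 559 CPM in knockdown libraries and 842, 862 and 1270.4 CPM in scramble libraries (-0.78, SE 0.18, adjusted p = 0.0222). Its highest library was scramble replicate 3, and the call did not survive dropping knockdown replicate 1, 2 or 3 (adjusted p = 0.106, 0.1 and 0.121). SERPING1, the inhibitor of C1r and C1s, was listed with 1 count in scramble replicate 3 and was at 0 in the other 5 libraries, where 3 counts, or 0.293 CPM at most, is the limit that counting allows.

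Among the coagulation factors F3 rose and F5, F8 and F12 were not called. F3, tissue factor, which starts coagulation, stood at 7.2, 6.99 and 8.64 CPM in knockdown libraries and 1.86, 3.99 and 2.42 CPM in scramble libraries. The groups did not overlap (log2 fold change 1.46, SE 0.28, adjusted p = 0.00939 by edgeR). F5, the cofactor of factor Xa, stood at 62.1, 64.3 and 69.0 CPM in knockdown libraries and 57.3, 58.9 and 21.0 CPM in scramble libraries. Only scramble replicate 3 lay far from the other libraries, with a fold change of 0.51 (adjusted p = 0.387) with that library and 0.17 (adjusted p = 0.0312) without it. F8, the cofactor of factor IXa, averaged 10.6 ± 0.444 CPM in knockdown libraries and 13.3 ± 2.99 CPM in scramble libraries (-0.33, adjusted p = 0.34), and without scramble replicate 3 it passed the test (-0.49, adjusted p = 0.00269). F12, the contact factor, averaged 4.92 ± 0.43 CPM in knockdown libraries and 7.16 ± 2.06 CPM in scramble libraries (-0.54, adjusted p = 0.195). F10, the common-pathway protease, held 4 to 5 counts in the knockdown libraries and 4 to 10 in the scramble libraries and was too low to test.

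Of 6 tested genes listed as coagulation inhibitors 2 rose, 2 fell and 2 were not called, where 5.89% of all genes rose and 5.64% fell. The 2 that fell include PROC, which passed the low-count filter only through its scramble libraries. THBD, thrombomodulin, which turns thrombin into an activator of protein C, stood at 21.1, 23.2 and 19.4 CPM in knockdown libraries and 2.97, 2.13 and 3.78 CPM in scramble libraries (log2 fold change 2.84, SE 0.22, adjusted p = 8.1e-05 by edgeR). PROC, the gene of protein C itself, was lower, at 5, 6 and 4 counts in knockdown libraries and 17, 13 and 21 counts in scramble libraries. PROC passed the filter only through its scramble libraries, so it had to differ (-1.66, adjusted p = 0.0187), and dropping knockdown replicate 1, 2 or 3 ended the call (adjusted p = 0.0838, 0.0668 and 0.102). PROS1, protein S, the cofactor of activated protein C, averaged 50.7 ± 1.07 CPM in knockdown libraries and 35.8 ± 8.69 CPM in scramble libraries (0.50, adjusted p = 0.153), and passed without scramble replicate 3 (0.31, adjusted p = 0.000332).

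The genes of the tissue factor pathway inhibitors took opposite signs. TFPI2, a matrix-bound inhibitor of plasmin and other serine proteases, stood at 723, 693 and 605 CPM in knockdown libraries and 409.6, 391 and 387 CPM in scramble libraries. The groups did not overlap (log2 fold change 0.77, SE 0.14, adjusted p = 0.00689 by edgeR). The TFPI2 call ended when knockdown replicate 1 or 2 was dropped (adjusted p = 0.0664 and 0.0639) and with the GC and length correction (0.49, adjusted p = 0.0705). TFPI, which blocks factor Xa and the tissue factor complex, stood at 92.7, 101 and 95.3 CPM in knockdown libraries and 202, 194 and 84.3 CPM in scramble libraries. Scramble replicate 3 lay beneath the knockdown libraries while the other scramble libraries lay above them, and the fold change of -0.73 (adjusted p = 0.151) was -1.04 without it (adjusted p = 2.93e-14). APOH, a phospholipid-binding plasma protein, stood at 5.10, 4.79 and 5.46 CPM in knockdown libraries and 9.20, 8.91 and 9.20 CPM in scramble libraries (-0.83, SE 0.17, adjusted p = 0.0133). The 3 scramble libraries lay close together for APOH, and its call ended when knockdown replicate 1, 2 or 3 was dropped (adjusted p = 0.083, 0.0923 and 0.0667). SERPINA5, the protein C inhibitor, had at most 1 count in a knockdown library and at most 4 in a scramble library.

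The receptor genes F2R and F2RL1, neighbours on chromosome 5, fell. F2R encodes the main thrombin receptor and stood at 51.7, 46.2 and 43.3 CPM in knockdown libraries and 96.7, 93.8 and 73.8 CPM in scramble libraries (log2 fold change -0.90, SE 0.17, adjusted p = 0.00883 by edgeR). F2RL1 stood at 19.5, 15.5 and 14.4 CPM in knockdown libraries and 49.7, 46.6 and 42.4 CPM in scramble libraries (-1.49, SE 0.18, adjusted p = 0.000872). Each scramble library lay above each knockdown library for both receptors. The F2R call ended when knockdown replicate 2 or 3 was dropped (adjusted p = 0.0689 and 0.0796).

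In the plasminogen system PLAU rose, and PLAUR and PLAT were not called. PLAU, urokinase, stood at 326, 312 and 329 CPM in knockdown libraries and 90.6, 89.0 and 133 CPM in scramble libraries (log2 fold change 1.63, SE 0.19, adjusted p = 0.000724 by edgeR). The groups lay apart, with scramble replicate 3 nearest to the knockdown level. C10orf55 overlaps PLAU and averaged 27.9 CPM in knockdown libraries and 9.81 CPM in scramble libraries, and no source used here says whether counting used strand, so reads of the pair may not have been told apart. PLAUR, the urokinase receptor, stood at 28.6, 27.2 and 23.3 CPM in knockdown libraries and 15.5, 16.2 and 22.2 CPM in scramble libraries (0.56, adjusted p = 0.0998), and it passed without scramble replicate 3 (0.73, adjusted p = 2.89e-06). PLAT, tissue plasminogen activator, was scarce at 1.10 ± 0.174 CPM in knockdown libraries and 1.67 ± 0.239 CPM in scramble libraries (-0.60, adjusted p = 0.24).

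The broad protease inhibitors were scarce. SERPINA3, an inhibitor of cathepsin G, averaged 1.79 ± 0.344 CPM in knockdown libraries and 3.12 ± 0.695 CPM in scramble libraries (log2 fold change -0.79, adjusted p = 0.103 by edgeR) and passed only with the GC and length correction (-0.72, adjusted p = 0.0382). SERPINA1, which encodes the main plasma inhibitor of neutrophil elastase, had at most 2 counts in any library, and A2M at most 1. At this depth no difference between the groups was detectable for SERPINA1 or A2M.

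**Figure D3:**
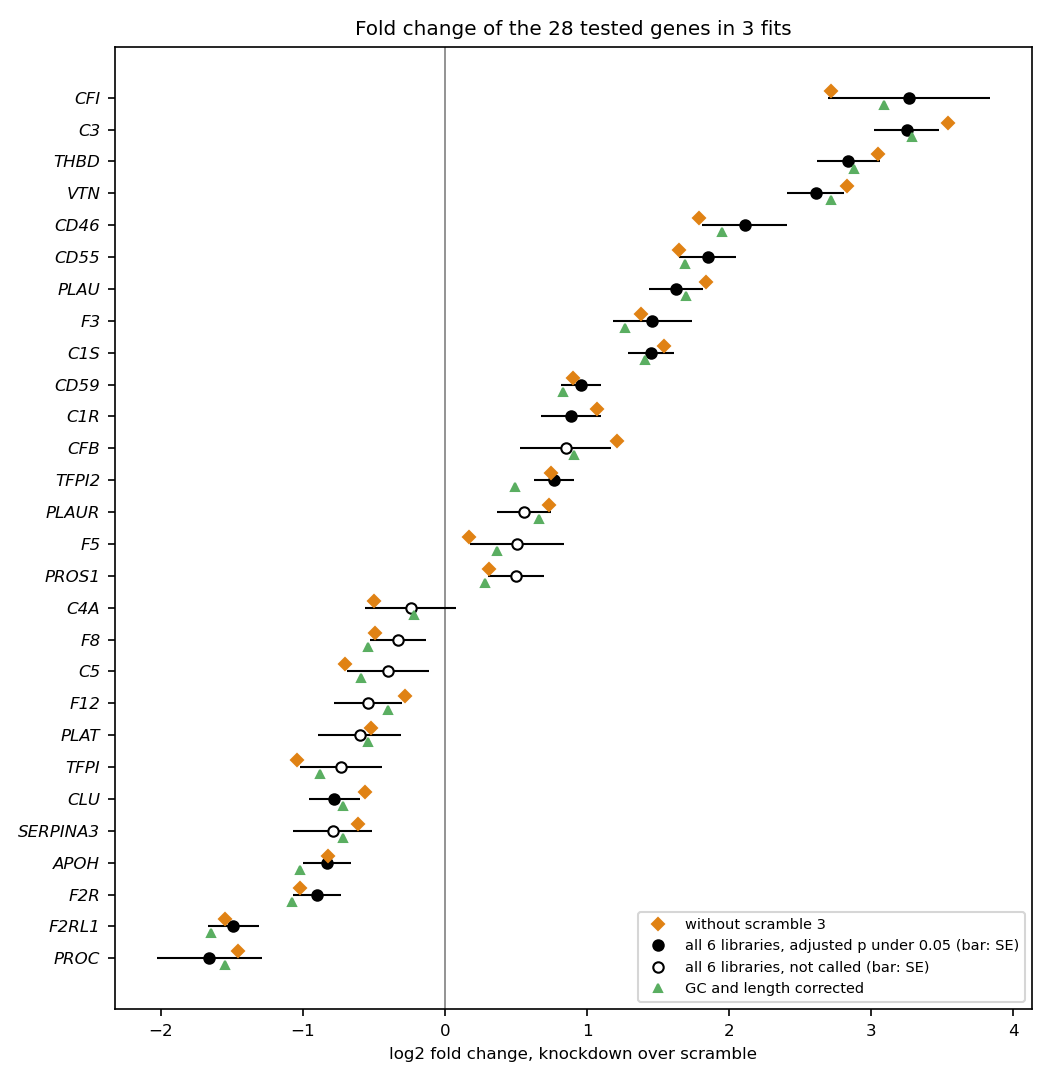
log2 fold change of knockdown over scramble for the 28 tested genes, with all 6 libraries (circles, bars give the SE, filled where the adjusted p was under 0.05), without scramble 3 (diamonds) and with correction for GC content and transcript length (triangles; none for C1R). C3 lies at 3.25, 3.54 and 3.29 in the 3 fits and F2RL1 at -1.49, -1.55 and -1.65.

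The order of the genes per transcript length differed between the groups. On the FPKM scale, which the authors scaled for transcript length and sequencing depth, the highest level in knockdown libraries was that of CD55 at 388 ± 17.3, then CD46 at 284 ± 4.41, TFPI2 at 269 ± 23.9, CLU at 196 ± 5.28 and PLAU at 131 ± 3.93 FPKM (SD, n = 3 each). CD46 and TFPI2 lay within their spread of each other. In scramble libraries CLU was highest at 347 ± 68.0 FPKM, followed by TFPI2 at 165 ± 10.8, CD55 at 111 ± 29.9, CD46 at 69.5 ± 30.9 and TFPI at 61.5 ± 25.3 FPKM. The SDs of CD55, CD46 and TFPI overlapped, with scramble replicate 3 lowest for each, but their order was the same within each scramble library. C3 reached 17.5 ± 0.432 FPKM in knockdown libraries and 1.91 ± 0.523 FPKM in scramble libraries, so it stayed well under the membrane regulators in both groups.

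**Figure D4:**
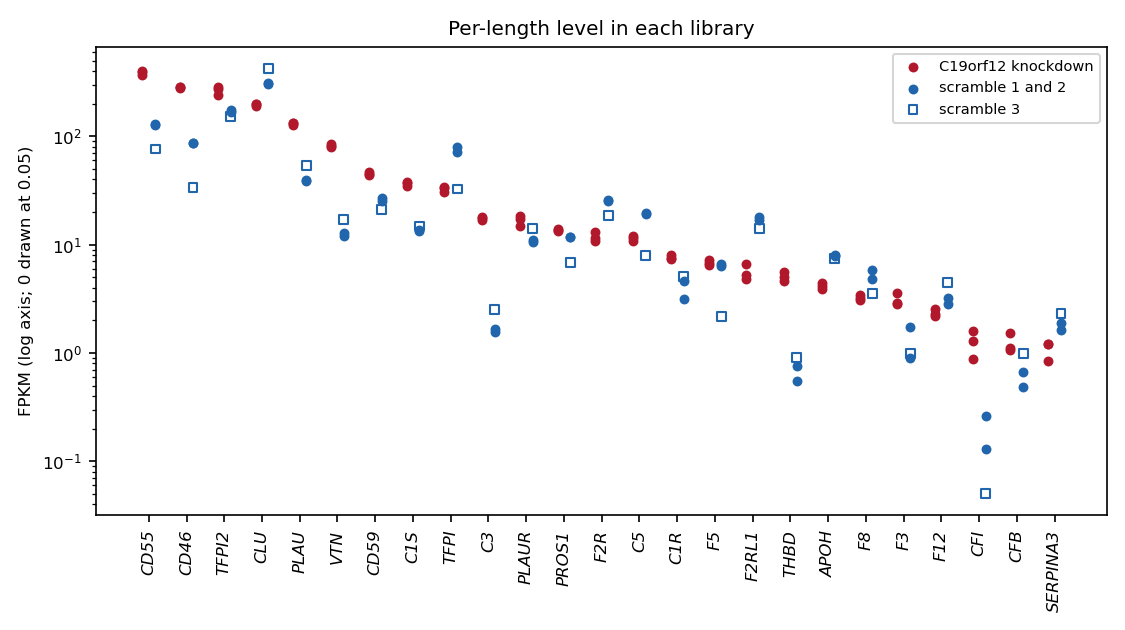
FPKM (log axis) of the 25 genes with a mean of at least 1 FPKM in either group, ordered by the knockdown mean, with 1 point per library (red knockdown, filled blue scramble 1 and 2, open square scramble 3). CD55 leads at 388 FPKM in knockdown libraries, and CLU leads at 347 FPKM in scramble libraries.

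The lists of other genes of the 3 systems were also drawn up with earlier results known. Their counts stand against 5.89% of all genes called higher and 5.64% called lower with all 6 libraries, and 25.7% and 23.8% without scramble replicate 3. Of 14 other complement genes tested 2 rose and 1 fell, and without scramble replicate 3, 5 rose and 1 fell (median log2 fold change 0.22 with all 6 libraries). CFD, factor D, which cuts factor B in the alternative pathway, rose to 119.9 ± 7.11 CPM in knockdown libraries, against 38.8 ± 9.03 CPM in scramble libraries (1.63, adjusted p = 0.000819 by edgeR). C5AR2, a receptor for C5a, averaged 1.99 ± 0.353 CPM in knockdown libraries and 0.502 ± 0.0491 CPM in scramble libraries (1.96, adjusted p = 0.0046), and passed the low-count filter only through its knockdown libraries. ITGAX, an integrin subunit of complement receptor 4, fell (-1.11, adjusted p = 0.015), a call that ended when knockdown replicate 1, 2 or 3 was dropped (adjusted p = 0.0854, 0.0568 and 0.0719). C1QBP, which binds C1q (0.09, adjusted p = 0.808), and C1RL (0.08, adjusted p = 0.795) did not pass, though both passed once scramble replicate 3 was dropped (0.31 with adjusted p = 3.95e-06 for C1QBP, 0.20 with adjusted p = 0.00597 for C1RL).

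Of 15 other coagulation genes tested 2 rose and 1 fell, and 6 rose and 5 fell without scramble replicate 3, where 25.7% and 23.8% of all genes did (median log2 fold change 0.15 with all 6 libraries). KNG1, kininogen, averaged 5.28 ± 0.896 CPM in knockdown libraries and 1.26 ± 0.362 CPM in scramble libraries (2.06, adjusted p = 0.00155 by edgeR). F2, prothrombin, was scarce at 1.73 ± 0.353 CPM in knockdown libraries and 0.223 ± 0.244 CPM in scramble libraries (2.91, adjusted p = 0.0133). F2 passed the filter only through its knockdown libraries. Its value was 4.05 without scramble replicate 3 and 2.33 without scramble replicate 1, and its call ended without knockdown replicate 1 (adjusted p = 0.0571). F7, the partner of tissue factor, fell (-1.25, adjusted p = 0.0222), and its call ended when knockdown replicate 1, 2 or 3 was dropped (adjusted p = 0.108, 0.0792 and 0.11). MCFD2 and LMAN1, which carry factors V and VIII out of the endoplasmic reticulum, were at 0.49 (adjusted p = 0.109) and 0.09 (adjusted p = 0.888), and without scramble replicate 3 at 0.33 (adjusted p = 5.74e-08) and -0.22 (adjusted p = 0.000259), while LMAN1 was at -0.08 with the GC and length correction.

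Of 11 tested genes on the list of other plasminogen genes, 0 rose and 3 fell by edgeR with all 6 libraries. Without scramble replicate 3, 3 rose and 5 fell, where 25.7% and 23.8% of all genes did (median log2 fold change -0.27 with all 6). The list also holds TNFRSF12A, by its symbol a TNF receptor family gene, and PLAA, so the count is not of plasminogen genes alone. MRC2, an endocytic receptor that associates with the urokinase receptor (-0.94, adjusted p = 0.00994), and TNFRSF12A (-0.89, adjusted p = 0.0155) fell. These 2 calls ended when knockdown replicate 1, 2 or 3 was dropped, with adjusted p between 0.0609 and 0.0724 for MRC2 and between 0.0822 and 0.0963 for TNFRSF12A. The plasminogen-binding pair ANXA2 (-0.02, adjusted p = 0.95) and S100A10 (0.14, adjusted p = 0.678) was not called with all 6 libraries and passed without scramble replicate 3 at 0.15 (adjusted p = 2.68e-05) for ANXA2 and 0.32 (adjusted p = 2.87e-06) for S100A10.

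Of 39 other liver-secreted and acute-phase genes 9 were tested, and by edgeR 0 rose and 1 fell, or 1 and 2 of 10 without scramble replicate 3. The gene that fell was SERPINA6, the cortisol-binding globulin gene (-1.57, adjusted p = 0.0371 by edgeR), with 0.499 ± 0.199 CPM in knockdown libraries and 1.51 ± 0.453 CPM in scramble libraries. It passed the filter only through its scramble libraries, and its call ended in 5 of the 6 fits that left out a library, with adjusted p between 0.0535 and 0.162, and with DESeq2 (adjusted p = 0.0655). Ceruloplasmin, CP, was at -0.10 (adjusted p = 0.861) and -0.39 without scramble replicate 3 (adjusted p = 4.36e-06), and LCN2 was at 0.15 (adjusted p = 0.728). Of fibrinogen, the clotting protein left out of the set, FGA averaged 783 ± 12.8 CPM in knockdown libraries and 29.7 ± 4.09 CPM in scramble libraries.

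Markers of cell types were compared with the line's label. Of 6 epithelial markers 3 rose and 0 fell with all 6 libraries, where 5.89% and 5.64% of all genes did. Without scramble replicate 3, 5 rose and 0 fell, where 25.7% and 23.8% of all genes did. Their summed level was 10218 to 10409.9 CPM in knockdown libraries and 3199 to 4674 CPM in scramble libraries, most of it KRT8 and KRT18. KRT19, the other marker called with all 6 libraries, passed the low-count filter only through its knockdown libraries. Of 8 hepatocyte markers 2 were tested and 0 called by edgeR with all 6 libraries. Their summed level of 3045 to 3209.6 CPM in knockdown libraries and 1238 to 2459 CPM in scramble libraries was nearly all CPS1. Without scramble replicate 3, CPS1 was called higher (0.36), as was the leukocyte marker CD68 (0.47). ALB, APOA1 and APOC3 stayed at or under 0.372 CPM in every library. The 6 endothelial markers summed to 3.50 to 4.09 CPM in knockdown libraries and 2.91 to 4.55 CPM in scramble libraries, and TEK was at 0 in all. The 7 leukocyte markers summed to 48.6 to 55.0 CPM in knockdown libraries and 37.9 to 51.1 CPM in scramble libraries, nearly all of it CD68, with CD3E at 0 in all. The 6 fibroblast markers summed to 24 to 26.5 CPM in knockdown libraries and 36.6 to 47.9 CPM in scramble libraries, nearly all COL1A1, which fell (-0.75, adjusted p = 0.0191 by edgeR). The COL1A1 call ended when knockdown replicate 1, 2 or 3 was dropped. The epithelial, hepatocyte and fibroblast sums did not overlap between the groups, and their part in the results above was not tested.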

How the data were processed

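Expected counts, FPKM and gene lengths were taken as deposited by the authors in 1 RSEM file per library, per the file headers. FPKM were scaled by the authors for length and depth, and expected counts were not normalized. The submitters' processing notes name the tools RSEM, BWA and Bowtie2 and build hg19, without order, and no source used here gives versions. Lengths served only for the correction below and for the transcript lengths described at the end.

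A gene missing from a file was set to 0. Entrez IDs were matched to symbols with RefSeq for GRCh38, 20727 of 20824, and the unmatched held 0.147% of counts. Rounded counts were analysed with edgeR 4.0.16 in R 4.3.3 (filterByExpr, minimum count 10 and total 15, TMM, glmQLFit, glmQLFTest), with Benjamini-Hochberg adjustment over all genes tested. The SE is the fold change over the root of F. The procedure was tested on simulated data.

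All 34 genes of the set are named, and of each other list up to 3 called genes with the smallest p and the 2 most abundant uncalled ones, except 1 gene that is not reported here. The set and lists were chosen with earlier results of these data known. COL1A1, the neighbours of the genes and the lengths of F8 and other genes were named after their values were seen. Replicate numbers did not pair the libraries. Alternatives were RLE and upper-quartile scaling, other filters, a replicate block, each library left out, DESeq2 1.42.0, limma-voom (limma 3.58.1), a GC and length spline with 5 degrees of freedom, and a log2 fold change of at least 1.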

Additional observations from a re-analysis of the deposited data

How the results depend on the processing

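Of 419 fold changes of tested genes of the set under the alternatives, 380 kept direction and side of the threshold, 20 lost the call, 19 gained it and 0 changed sign. RLE or upper-quartile scaling, no filter, 1 CPM in 3 libraries, DESeq2 and limma-voom left all 28 as they were, and summing C4A and C4B left C4A uncalled. With all genes, 1708 were called; the GC and length correction gave 4915, or 4202 with the replicate block, and a log2 fold change of at least 1 gave 910. Leaving out 1 library gave 729 to 7439 genes, 10 to 16 higher and 1 to 8 lower genes of the set, with the top of each range without scramble replicate 3. The 5 lower genes became 9 with that correction, 8 with correction and block, and 2 with a log2 fold change of at least 1. The cause was not tested. Signs changed for C1QBP without scramble replicate 1 or 2 (-0.015 and -0.012; up to 0.31 with a library left out), LMAN1 with the correction (-0.083), with correction and block (-0.076) and without scramble replicate 3 (-0.22, against up to 0.28 with another library left out), ANXA2 without scramble replicate 3 (0.15, against down to -0.12), and CP without scramble replicate 1 or 2 (0.10 and 0.018, against down to -0.39).

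Same-numbered libraries did not deviate together (correlations of -0.0239, -0.0181 and -0.0232), and with the replicate block 1654 genes were called, with 12 higher and 5 lower genes of the set and no other call changed. Between knockdown libraries, and between scramble replicates 1 and 2, the squared differences were 1.61 to 1.95 times what counting alone gives. The estimated biological coefficient of variation was 2.97% without scramble replicate 3 and 18.9% with it. The limit for counts of 0 covers counting error only.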

Other observations

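Neighbouring genes were read from the RefSeq order on GRCh38 around the genes of the set that were called. Genes of the set also neighbour each other, and C1S with C1R, CD55 with CD46 and F2R with F2RL1 are described above. Leaving out the set, 41 different genes were among the 2 nearest tested on each side of a higher gene, of which 3 rose (ABCD3, SAMD9L and VCL) and 1 fell (FOXA2), against 5.89% and 5.64% of all genes. Without scramble replicate 3, 18 of the 41 rose and 5 fell, against 25.7% and 23.8% of all genes. Of 16 such neighbours of lower genes outside the set, AXIN2 rose and CACNG4 fell, and without scramble replicate 3, 2 rose and 6 fell. C1RL, which lies beside C1R and C1S, was at 0.08 on the log2 scale (adjusted p = 0.795 by edgeR), and LPCAT3 on the other side did not pass (adjusted p = 0.992). Without scramble replicate 3 both passed, C1RL at 0.20 (adjusted p = 0.00597) and LPCAT3 at 0.17 (adjusted p = 0.034). C4BPA and CR1, complement genes near CD55 and CD46, were at 0.23 and 0.42 (adjusted p = 0.635 and 0.583). PFKFB2 near CD55 was at 0.98 (adjusted p = 0.0692), and near CD46 MIR29B2CHG was at 0.73 (adjusted p = 0.0996) and PLXNA2 at -0.29 (adjusted p = 0.386). Without scramble replicate 3, PFKFB2 (0.66, adjusted p = 3.9e-07) and MIR29B2CHG (0.71, adjusted p = 0.035) passed, while C4BPA, CR1 and PLXNA2 did not. NCRUPAR and AGGF1, near F2R and F2RL1, were at 0.09 and 0.41 (adjusted p = 0.873 and 0.424).

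The deposited files also give a mean transcript length per gene and library. For F8, which the files list with 2 transcripts, it was 3156.1, 3110.86 and 3195.96 bases in knockdown libraries and 2888.22, 2869.75 and 2823.7 bases in scramble libraries, so the groups did not overlap. F8 had 101, 110 and 107 estimated counts in knockdown libraries and 176, 143 and 107 in scramble libraries. The lengths were not tested.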
